A study of Equus caballus with 9 samples.

Results

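The set described here is a module of 119 genes, of 21689 listed, whose measured levels were higher in fetal and ESC-derived equine tenocytes than in adult tenocytes. The genes were chosen by their measured values in these same libraries. Levels were CPM values, the count of a gene times 1e+06 over the total count of its library. A gene was a member if it had at least 2 CPM in each of the 6 fetal and ESC-tenocyte libraries and if the lowest of those 6 lay above the highest of the 3 adult libraries. Its fetal mean and its ESC mean also had to be at least 3 times the adult mean, and its fetal mean at most 4 times its ESC mean. The rule used every library and all 3 contrasts between the groups. The values below are therefore a description of the module, and no test of its level was possible.

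RNA was sequenced from horse cells kept for 14 days in three-dimensional collagen gels, with 3 lines per group. Adult tenocytes came from the superficial digital flexor tendon of Thoroughbreds aged 2 to 6 years, as lines CD (passage 4), TB130911 (passage 6) and TB250718B (passage 4). Fetal tenocytes came from tendons of fetuses at 271, 319 and 320 days of gestation, as lines 271d (passage 5), 319d (passage 8) and 320d (passage 4). ESC-tenocytes came from the embryonic stem cell lines HJ (passage 12), IG (passage 16) and PW (passage 14), each from its own embryo, which had been grown on mouse feeder cells. The labels give no genetic change or added factor for any group.

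Adult and fetal gels were seeded with dispersed cells and kept in tenocyte medium, whereas ESC gels were seeded with clumps and kept in stem cell medium from which leukaemia inhibitory factor had been withdrawn. Medium, seeding and cell origin cannot be told apart in any comparison with the ESC-tenocytes. The fetuses had aborted spontaneously, and the cell composition of the ESC gels was not measured.

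Tendon is a collagen-rich tissue maintained by tenocytes, fibroblast-like cells that lay down and align the matrix. In the fetus tendon can heal without a scar, whereas adult tendon heals with fibrous tissue that is weaker than the original. Embryonic stem cells placed under tension in a collagen gel can take on tenocyte features, so the transcripts they have in common with fetal tenocytes and not with adult tenocytes are of interest for cell therapy. The comparison addressed which transcripts these were and how evenly the fetal and ESC-tenocytes shared them.

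Library totals varied within the adult and fetal groups. The adult libraries held 11109492 (CD), 20411868 (TB130911) and 18536676 (TB250718B) counts. The fetal libraries held 19801323 (271d), 20705852 (319d) and 10568491 (320d) counts. The ESC libraries held 9412112 (HJ), 10772461 (IG) and 8965593 (PW) counts, so that all 3 lay in the shallow class of under 15000000, together with CD and 320d. This depth class was a term in the fits, in place of the sequencing batch, except where its omission is stated. The study's methods name 2 sequencing providers with different library kits and a batch correction, whereas the labels give the same TruSeq kit for every library and no provider. Which libraries belong to which provider was not resolved, and any difference between providers or kits that coincides with the groups cannot be told apart from them. The files give Ensembl gene identifiers without names, and 0 of them matched the horse gene table at hand. The roles of the members, and the tendon and other cell type markers that would check the group labels, could therefore not be read, and 2 members are given by identifier.

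The rule narrowed the gene list in steps. Of the 21689 genes, 17648 had a count in at least 1 library and 9585 reached 2 CPM in all 6 fetal and ESC libraries. In 1046 of these the lowest of the 6 exceeded the highest adult library. The ESC threshold was met by 286 of the 1046, the fetal threshold by 130, and both by 122, of which 3 exceeded the fetal-to-ESC limit. Of the thresholds on the ratios to adult, the fetal one was thus the narrower, since 164 genes missed membership through it alone and 8 through the ESC threshold alone. Another 159 genes missed it through the 2 CPM minimum alone. All 119 members passed the low-count filter and were among the 13197 genes tested, of which they made up 0.902%.

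With the roles of the groups exchanged, the same rule gave modules of other sizes. Adult and ESC-tenocytes shared 52 genes that were low in fetal tenocytes, which is 0.240% of the genes listed, against 0.549% for the fetal and ESC module. Adult and fetal tenocytes shared 1269 genes that were low in ESC-tenocytes, or 5.85%.

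The module took a small share of all transcripts, and the share was stepped across the groups. In the adult libraries its genes held 0.0838% (CD), 0.124% (TB130911) and 0.0853% (TB250718B) of the counts. In the fetal libraries they held 0.923% (271d), 0.693% (319d) and 0.435% (320d). In the ESC libraries they held 2.77% (HJ), 2.68% (IG) and 1.85% (PW). The group means were 0.0978% ± 0.0230 in adult, 0.684% ± 0.244 in fetal and 2.43% ± 0.508 in ESC-tenocytes (SD, n = 3). The lowest ESC share was more than 2 times the highest fetal share, and the lowest fetal share more than 3 times the highest adult share. Within the fetal group the share in 271d was more than 2 times that in 320d. In these bulk libraries, fewer cells that express a gene and less RNA per cell cannot be told apart.

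**Figure D1:**
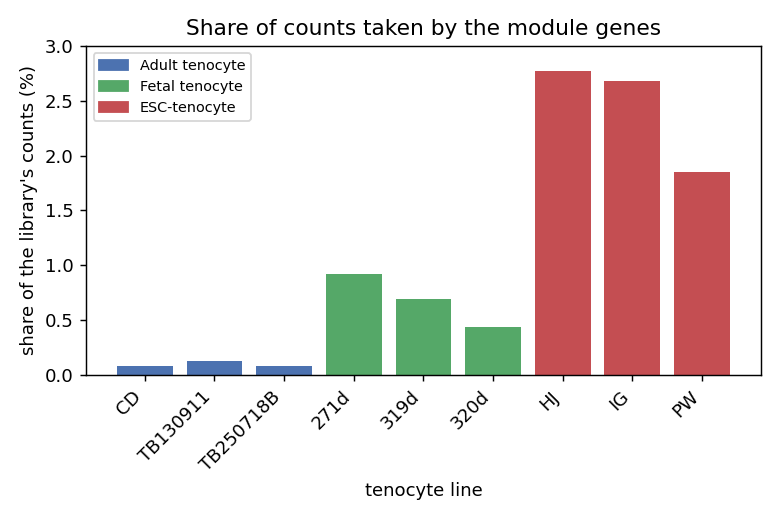
Share of each library's counts (%, from 0) taken by the 119 module genes, 1 bar per line, coloured by group. Adult bars lie between 0.0838% and 0.124%, fetal bars between 0.435% and 0.923%, and ESC bars between 1.85% and 2.77%.

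The typical member followed the same order. Its median level was 2.52, 3.43 and 2.27 CPM in CD, TB130911 and TB250718B. It was 20.0, 18.4 and 12.2 CPM in 271d, 319d and 320d, and 65.4, 75.3 and 51.4 CPM in HJ, IG and PW. The 10 members with the highest mean over the 6 fetal and ESC libraries held 53.5% of the module's counts in HJ, 53.5% in IG and 44.4% in PW. They held 45.6% in 271d, 36.4% in 319d and 31.9% in 320d, and between 27.0% (TB130911) and 34.1% (CD) in the adult libraries. The ranking mean was weighted towards the ESC libraries, where the module's sum was larger, so the higher shares there follow in part from the ranking. Gene lengths were not available, so these sums are shares of counts and do not rank genes by molecules.

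The module is defined by relative levels, and the adult levels of its members ran from 0 to 163 CPM. In 52 of 119 every adult library reached 2 CPM, in 30 all 3 lay under 2 CPM, and in 12 all 3 lay under 1 CPM. In 25 members at least 1 adult library had 3 counts or fewer, which is the level that a count of 0 allows, and in none did all 3. CD had 7 members at 0 counts and TB250718B had 4, whereas TB130911 had none. For 5 members the adult mean was under the floor of 0.270 CPM, the 3-count level of the smallest adult library, and their ratios to adult are lower bounds computed at that floor. The 12 members under 1 CPM in every adult library had ESC levels up to 354 CPM and fetal levels up to 28.1 CPM.

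The excess over adult was larger in ESC than in fetal tenocytes for most members. The fetal mean was a median of 5.61 times the adult mean (quartiles 4.20 and 11.0, range 3.05 to 343). The ESC mean was a median of 19.3 times the adult mean (quartiles 7.45 and 45.1, range 3.11 to 1707). A fetal ratio of at least 10 was found in 32 members and of at least 20 in 14, whereas an ESC ratio of at least 10 was found in 74 and of at least 100 in 19. Both comparisons used the same 3 adult libraries, so their ratios are not independent. The fetal ratio was the smaller in 99 members and the ESC ratio in 20. In 31 members both ratios were at least 10, in 12 both were at least 20, and in 4 both were under 4.

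**Figure D2:**
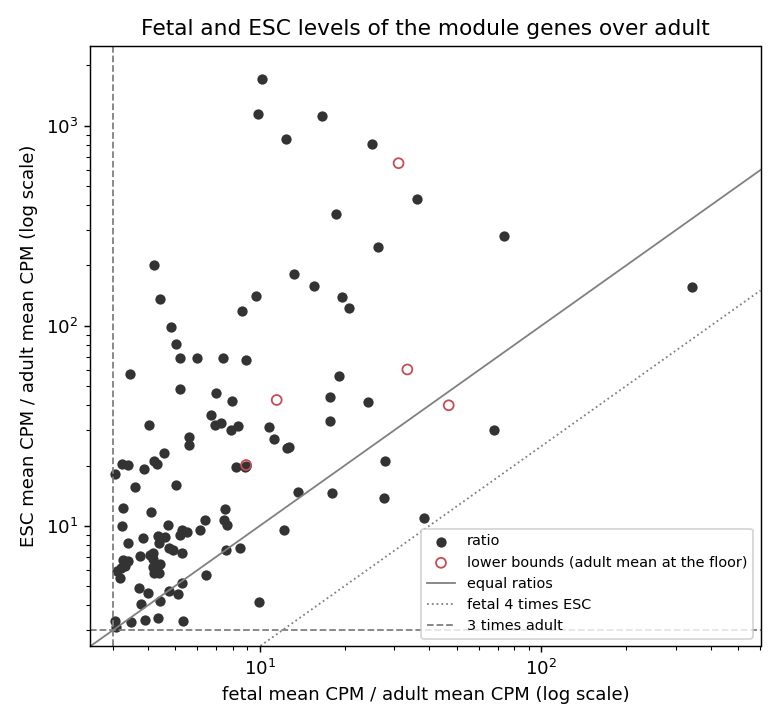
Fetal mean over adult mean (x axis) and ESC mean over adult mean (y axis) of CPM, both on log scales, 1 point per member, with the thresholds of 3 dashed, the limit of 4 dotted and equal ratios as a solid line. Of the 119 points, 99 lie above the solid line, and the 5 open circles are lower bounds.

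The gap between the groups was narrow for many members. The lowest of the 6 fetal and ESC libraries was a median of 2.40 times the highest adult library (quartiles 1.78 and 3.44), and it ranged from 1.03 to 44.1 times. It was at least 5 times in 19 members and at least 10 times in 6. The members nearest the fetal threshold had ratios of 3.05, 3.07 and 3.08, and the genes just outside it had 2.99, 2.96 and 2.96. At the ESC threshold the nearest members had 3.11, 3.31 and 3.33 and the nearest other genes 2.98, 2.89 and 2.82. The lowest CPM of the 6 libraries was 2.03 in the member nearest the minimum and 1.92 in the nearest gene outside. The fetal-to-ESC limit was met with 3.499 and missed with 4.32. The separation from adult was met with a ratio of 1.03 and missed with 0.951.

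ENSECAG00000006567 had the widest separation, as the member with the largest smaller-of-the-pair ratio to adult. Its level was 181 (271d), 278 (319d) and 95.8 (320d) CPM in fetal tenocytes, a mean of 185 ± 91.2 (SD, n = 3). It was 65.8 (HJ), 125 (IG) and 62.7 (PW) CPM in ESC-tenocytes, a mean of 84.6 ± 35.3. In adult tenocytes it was 0.0900 (CD), 1.42 (TB130911) and 0.108 (TB250718B) CPM, from 1, 29 and 2 counts, with exact Poisson 95% intervals of 0.00228 to 0.502, 0.951 to 2.04 and 0.0131 to 0.390 CPM that cover counting error. All 6 fetal and ESC libraries lay far above the adult ones, while the fetal and ESC ranges overlapped.

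The fetal mean of ENSECAG00000006567 was 343 times and its ESC mean 157 times the adult mean. Most of the adult signal came from TB130911, and without that line the ratios were 685 and 313 when taken at the floor of 0.270 CPM. The log2 fold changes of edgeR's quasi-likelihood test, given as a description, were 8.38 (SE 0.85, adjusted p = 0.00975) for fetal minus adult and 8.32 (SE 1.07, adjusted p = 0.00114) for ESC minus adult. For fetal minus adult the adjusted p ranged from 6.32e-20 to 0.0407 over 13 alternatives and missed 0.01 in 11 of them, while the log2 fold change stayed between 7.80 and 10.52. For ESC minus adult it ranged from 5.11e-13 to 0.0193 and missed 0.01 in 2, at 0.0104 without 320d (log2 fold change 9.59) and 0.0193 without CD (7.95). The ESC minus fetal log2 difference was -0.05 (SE 0.81, adjusted p = 0.963) in edgeR. Its sign was not stable, since it was -1.16 without the depth class term and 1.44 without 320d.

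ENSECAG00000006290 had the highest mean CPM of the members over the 6 fetal and ESC libraries, and it was shared very unevenly. Its level was 3964 (HJ), 1985 (IG) and 1582 (PW) CPM in ESC-tenocytes, a mean of 2510 ± 1275 (SD, n = 3). In fetal tenocytes it was 29.2 (271d), 50.5 (319d) and 29.0 (320d) CPM, a mean of 36.2 ± 12.3. In adult tenocytes it was 1.80 (CD), 4.90 (TB130911) and 2.10 (TB250718B) CPM, a mean of 2.93 ± 1.71. The 3 groups were fully separated, and the ESC mean was 69.3 times the fetal mean and 855 times the adult mean, against 12.3 times for fetal over adult.

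In edgeR the log2 fold changes of ENSECAG00000006290 were 10.11 (SE 0.83, adjusted p = 0.000251) for ESC minus adult and 6.51 (SE 0.72, adjusted p = 0.000835) for ESC minus fetal. For fetal minus adult the value was 3.60 (SE 0.51, adjusted p = 0.0209), which missed the threshold of 0.01 used for calls. DESeq2 gave 8.38e-13 for that contrast, and over 13 alternatives the adjusted p ran from that value to 0.0825. The ESC minus fetal call was lost without 320d, at a log2 fold change of 6.79 and an adjusted p of 0.0189, in a range from 1.62e-30.

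Sharing between fetal and ESC-tenocytes ranged from even to very uneven. The ESC mean was a median of 2.14 times the fetal mean (quartiles 1.40 and 5.63, range 0.286 to 168), and it was the higher in 99 members, or 83.2%, against 50.9% of all genes tested. The rule limited how far fetal could exceed ESC but set no limit in the other direction, so the choice of members could add to this lean. The limit removed 3 of 122 genes. In 52 members (43.7%) the means lay within 2 times of each other. The fetal mean was higher in 20 members, the ESC mean was 1 to 2 times fetal in 37, 2 to 4 times in 21, 4 to 16 times in 29 and over 16 times in 12. In the edgeR fit the ESC minus fetal log2 difference of those 20 ran from -1.41 to 1.02, so its direction turned for some. It was under 0 in 11 of all members.

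The classes were cut by the ESC-to-fetal ratio, so their parts of the module's counts had to differ between the groups. The 20 members higher in fetal tenocytes made up 40.8% of the module's mean CPM in the fetal libraries and 7.00% in the ESC libraries. Their part was 51.2% in 271d, 30.6% in 319d and 35.0% in 320d. The 12 members more than 16 times higher in ESC-tenocytes made up 4.27% in fetal and 40.2% in ESC libraries. Those 12 ranged from 115 to 3964 CPM in ESC libraries and from 2.46 to 173 CPM in fetal libraries, and the highest adult value was 23.9 CPM.

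The ESC and fetal levels were also compared library by library. Every ESC library lay above every fetal library in 67 members (56.3%), against 31.4% of the genes tested, so that these 67 were fully stepped from adult to fetal to ESC-tenocytes. Every fetal library lay above every ESC library in 2 members (1.68%), against 31.3% of the genes tested. The fetal and ESC ranges overlapped in the other 50. Since the rule had used these libraries, nothing was read from the shares.

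**Figure D3:**
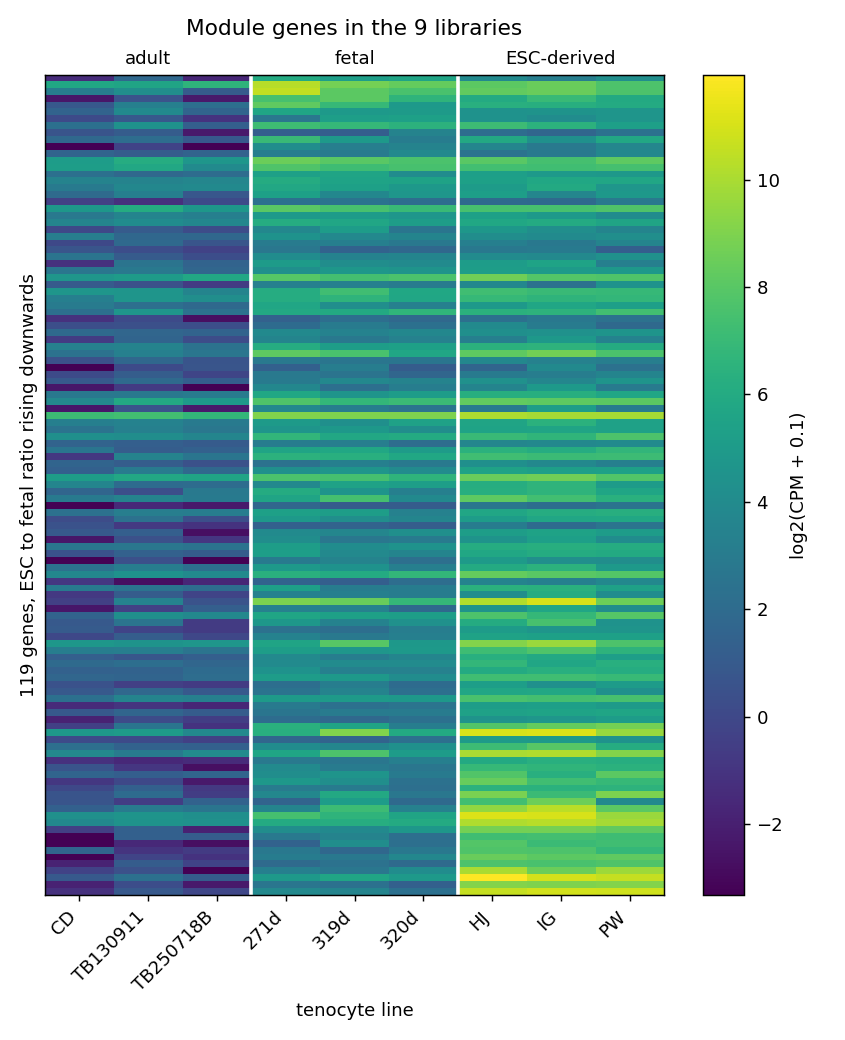
Level of the 119 members (rows, ordered by the ratio of ESC to fetal mean) in the 9 libraries (columns, by group), as log2 of CPM plus 0.1. Adult columns are darkest in every row, and the ESC columns become brighter than the fetal columns towards the bottom, where the ratio reaches 168.

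A call required an absolute log2 fold change of at least 2 and a Benjamini-Hochberg adjusted p under 0.01. For ESC over adult, edgeR called 89 of the 119 members (background 7.81% of genes tested) and DESeq2 called 113 (background 10.2%). The median log2 fold change of the members was 4.50 (range 0.59 to 11.84), beside 0.02 over the genes tested. For fetal over adult, edgeR called 8 members (background 0.0909%) and DESeq2 called 84 (background 2.54%). The members' median was 2.48 (range 1.52 to 8.38), beside 0.01 over the genes tested. The rule had used both contrasts, so these counts describe the choice and nothing was read from them.

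The count of fetal calls rested on the tool and on single libraries. The edgeR fit gave an unadjusted p under 0.05 to 115 members, against 12.0% of genes tested in that direction, and an adjusted p under 0.05 to 77, against 2.51%, but 8 passed the call. Leaving out any of the 9 libraries brought the 8 down to between 0 (without TB130911) and 4 (without IG). Over all genes, the 21 calls in both directions fell to between 1 (without TB130911) and 15 (without IG). For ESC over adult the 89 fell to 40 without CD and to 50 without 320d, the 2 shallow libraries outside the ESC group. Over all genes, the 2284 calls in both directions fell to 622 without CD and to 1427 without 320d. Without CD, the shallow class held no adult library.

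The 8 members called for fetal over adult had a median fetal mean of 39.9 CPM, against 20.1 CPM over all 119 members. Their median coefficient of variation (CV) was 37.0% among the adult lines, 31.8% among the fetal lines and 11.3% among the ESC lines. Their fetal mean was 4.16 to 343 times the adult mean, with a median of 15.4. In the 111 members not called for fetal over adult, the median CV was 56.7% among adult, 36.9% among fetal and 29.4% among ESC lines, and the median fetal ratio was 5.32. A call depends on spread and fold, so these differences follow from the call itself.

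Between ESC and fetal tenocytes, edgeR called 29 members higher in ESC (background 6.74%) and DESeq2 called 46 (background 8.96%). The 29 had ESC means 2.26 to 168 times their fetal means, with a median of 9.42. The median log2 difference of the members was 1.53 (range -1.41 to 8.52), beside -0.01 over the genes tested. In the fetal direction edgeR called 0 members (background 7.98%), and DESeq2 also called 0 (background 12.0%). A fetal call needs a ratio near the rule's limit of 4, so the rule left little room for one. That limit removed 3 of the 122 genes that met the other conditions. The log2 difference was under 0 in 11 members. An unadjusted p under 0.05 in edgeR was found in the fetal direction in 0 of the 119 members, against 28.1% of the genes tested. In the ESC direction it was found in 63 members, against 25.2%. The 29 fell to 7 without 320d, to 17 without CD and to 17 without HJ. Over all genes, the 1943 calls in both directions fell to 282, 1134 and 1275 in that order.

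The ratios were also taken within each depth class, as a description, since the rule had fixed that every fetal library lay above every adult one. Between the 2 adult and 2 fetal deep libraries the median ratio was 6.20 (range 2.12 to 300.2), and 112 members reached 3. Between the single adult and the single fetal shallow library, CD and 320d, it was 5.38 (range 1.05 to 355), and 96 members reached 3. CD levels under 0.270 CPM, its 3-count level, were set to that floor in these ratios, including the ratio of 355. The median over all genes tested was 1.04 and 1.09. Within the shallow class the 3 ESC libraries had a median of 22.3 times CD, with 116 members at 3 or more, and 3.24 times 320d. No ESC library was deep, so depth and cell origin cannot be told apart for the ESC levels outside the shallow class.

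The median CV of the members among lines of a group was 56.1% among adult, 36.8% among fetal and 27.3% among ESC lines. Over all genes tested it was 18.0%, 17.8% and 18.2%. A CV above 50% was found in 65 members (54.6%, against 12.1% of genes tested) among adult lines and in 33 (27.7%, against 13.5%) among fetal lines. Among ESC lines it was found in 22 (18.5%), near the 18.7% of genes tested. The median member had 28 counts in CD, 70 in TB130911 and 42 in TB250718B, and the part of counting error in the adult spread was not tested.

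Among adult lines TB130911 stood apart. It was the highest adult line in 79 members (66.4%, against 45.9% of genes tested) and at least 2 times both other adult lines in 38 (31.9%, against 4.75%). Those 38 summed to 325 CPM in TB130911, 107 in CD and 95.2 in TB250718B. In fetal lines they summed to 3893 (271d), 2124 (319d) and 1315 (320d) CPM, and in ESC lines to 10840 (HJ), 9854 (IG) and 7752 (PW) CPM. That these sums were lower in TB130911 than in every fetal and ESC line was fixed by the rule. It had the highest passage of the adult lines and the deepest adult library, and the part of either in its level was not tested. Without it the median fetal ratio over adult was 6.78 in place of 5.61.

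Among fetal lines the module was fullest in the line of earliest gestation. The line 271d was highest in 65 members (54.6%, against 35.8% of genes tested), 319d in 38 (31.9%, against 26.5%) and 320d in 16 (13.4%, against 36.9%). The line 320d was lowest in 64 (53.8%, against 35.9%) and at least 2 times below both other fetal lines in 19 (16.0%, against 5.32%). The lines 319d and 320d differ by 1 day of gestation, 271d is a single line, and 320d is the shallow fetal library, so an effect of gestational age cannot be told apart from that of line or depth.

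The size of the module depended on 320d. Without it the rule gave 184 genes, of which 117 were among the 119. With a library left out, there are fewer conditions that each library has to meet, so such a rise follows in part from the rule. Leaving out any other library gave between 115 (without TB250718B) and 159 genes (without TB130911), and those sets held between 107 and 118 of the 119.

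A group of 12 members was led by 319d, with a level at least 2 times that of both other fetal lines (10.1% of members, against 3.71% of genes tested). The ratio of 319d to the next line had a median of 3.98 and reached 12.1. Together they summed to 1626 CPM in 319d, 346 in 271d and 232 in 320d. In ESC lines they summed to 5756 (HJ), 6548 (IG) and 2705 (PW) CPM, and in adult lines to 111 (CD), 121 (TB130911) and 89.4 (TB250718B) CPM. The lead of 319d over the other fetal lines was fixed by how the 12 were chosen. Their ESC mean was a median of 6.73 times the fetal mean, against 1.95 in the other members. Without 319d, 5 of the 12 kept a fetal mean of at least 3 times adult.

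The ESC lines also differed in these 12 genes. Their median CV among ESC lines was 50.8%, against 25.2% in the other members, and PW was the lowest ESC line in 9 of them and IG the highest in 7. For fetal over adult, DESeq2 called 7 of the 12, beside 84 of all 119 members and 2.54% of genes tested. The edgeR fit called 0 of the 12, beside 8 of 119 and 0.0909%, and 10 of the 12 had an unadjusted p under 0.05, beside 115 of 119 and 12.0%. 319d had the highest passage of the fetal lines, and the part of passage was not tested.

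A second group of 10 members was led by 271d in the same way (8.40%, against 2.99% of genes tested). They summed to 3423 CPM in 271d, 932 in 319d and 605 in 320d, and to 1071 (HJ), 1224 (IG) and 817 (PW) CPM in ESC lines. In adult lines they summed to 91.4 (CD), 98.2 (TB130911) and 129 (TB250718B) CPM. For fetal over adult, DESeq2 called 9 of the 10, beside 84 of all 119 members and 2.54% of genes tested. The edgeR fit called 1 of the 10, beside 8 of 119 and 0.0909%. Without 271d, 8 of the 10 kept a fetal mean of at least 3 times adult. Their ESC mean was a median of 1.88 times the fetal mean. A single member was led by 320d (0.840%, against 4.74% of genes tested), with 11.1 CPM there and 2.37 and 2.22 CPM in 271d and 319d, and it fell below 3 times adult without that line.

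Among ESC lines PW held the least of the module. It was the lowest in 63 members (52.9%, against 27.5% of genes tested) and at least 2 times below both other ESC lines in 15 (12.6%, against 8.51%). Those 15 summed to 7513 (HJ), 9778 (IG) and 2688 (PW) CPM. In 0 members was PW at least 2 times both other ESC lines, against 2.11% of genes tested, and IG was in 8 (6.72%, against 11.0%). Of the 15 members low in PW, 5 belonged to the 12 led by 319d, which is 33.3% of the 15 and 41.7% of the 12.

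Counts that are not whole numbers, beyond a tolerance of 0.01, mark reads that the quantification split between genes with alike sequence. At least 1 such count was found in 12 members (10.1%), against 7.72% of the 9585 genes at 2 CPM in the 6 libraries, and 3 members had them in every library. Levels of these members are uncertain by the split. Neither of the members given by identifier was among them.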

How the data were processed

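The deposited table held estimated counts per gene, which the authors made with Salmon against the Ensembl release 96 transcriptome of EquCab3.0 and imported into R 3.5.2 with tximport. Its 9 columns matched the 9 libraries. CPM came from the unrounded counts. Counts were rounded for edgeR 4.0.16 and DESeq2 1.42.0 in R 4.3.3. Genes were filtered by group with filterByExpr and scaled by TMM, and a quasi-likelihood model with group and depth class (over or under 15000000 counts) was fitted to all 9 libraries. P-values were adjusted by Benjamini-Hochberg over 13197 genes. The SE given with an edgeR value was its absolute log2 fold change over the square root of the test's F statistic. The fitting code was run on simulated counts with the same spread for every gene. This checks the code and not how the tests handle the spread of these data. Tximport's length offsets were not in the table and were not used.

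The genes given by identifier were the member with the largest smaller-of-the-pair ratio to adult and the member with the highest mean CPM over the 6 fetal and ESC libraries. The members and lists were chosen with earlier results of these data known. Gene lists, cell type markers and gene neighbours could not be counted because 0 identifiers matched a name. Alternatives were DESeq2, its size factors, no filter, no depth class, other rule settings and each library left out in turn.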

Additional observations from a re-analysis of the deposited data

How the results depend on the processing

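The module held 207 genes with a fold minimum of 2 and 68 with a minimum of 5, and stayed within 1.5 times of 119 with TMM-scaled CPM, a CPM minimum of 1 or 5, no fetal-to-ESC limit or a limit of 2. Leaving out each library in turn gave 115 to 184 genes.

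Adult against fetal, edgeR called 21 genes in both directions, DESeq2 565, edgeR with DESeq2's size factors 5, edgeR without the filter 5 and without the depth class 10. The 8 members called became 84, 2, 2 and 4 in that order of settings. Each library left out gave 1 to 15 calls and 0 to 4 members. The cause was not tested.

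Adult against ESC, the 2284 calls ranged from 622 to 2579 and the 89 members called from 40 to 88 with a library left out. Fetal against ESC, the 1943 calls ranged from 282 to 2395 and the 29 members called from 7 to 27, and DESeq2 called 46 members. Other alternatives kept these counts within 1.5 times.

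The ESC minus fetal difference of ENSECAG00000006567, -0.05 and not called, was 0.0900 in DESeq2 and ran from -0.56 to 1.44 with a library left out, among them 1.44 (320d), 0.11 (HJ), 0.15 (PW) and 0.05 (TB250718B).

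No paired analysis was possible because the replicate numbers of the lines follow the order of deposit and join no animals across groups. Each group had 3 lines, many adult counts of the members were low, and the ESC libraries were all shallow. The part of each in the precision was not tested.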
